A study of Homo sapiens with 2 samples.

Results

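The genes described are the 10 that detect or act on double-stranded RNA in human cells: the helicases RIGI, IFIH1 and DHX58, the endosomal receptor TLR3, the kinase EIF2AK2, the oligoadenylate synthetase family members OAS1, OAS2, OAS3 and OASL, and the editing enzyme ADAR. They were chosen by name, and all 10 of 10 were measured, out of 22465 genes that carried a probe set with exactly 1 gene symbol. Each of the 10 had 1 such probe set, so no choice between probe sets was needed. The cells were IGROV1-R10, a human ovarian carcinoma line known as a cisplatin-resistant derivative of IGROV1. One culture was transfected with a miR-491-5p duplex and the other with a control miRNA duplex, each at 20 nM, 24 hours after seeding and with the same transfection reagent. Total RNA of each culture was hybridised to 1 whole-transcript array, 2 arrays in all. There were no replicates, so no value below has an error between cultures and no gene was tested. An untransfected culture was not analysed here, so a response to a duplex or to the reagent that both cultures share would not appear in the difference. In these bulk samples, fewer cells that carry a transcript and less of it per cell cannot be told apart.

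Double-stranded RNA is a hallmark of viral replication, and cells read it through several branches. The RIG-I-like helicases signal from the cytosol through the mitochondrial adaptor MAVS, and TLR3 signals from endosomes through the adaptor TICAM1, and both lead to type I and type III interferon. EIF2AK2, also known as PKR, phosphorylates the initiation factor eIF2 alpha and slows translation. The oligoadenylate synthetases make short oligoadenylates that trigger RNA decay, and ADAR converts adenosine to inosine in cellular duplexes, which keeps them from being read as foreign. Most of these genes are themselves induced by interferon. A transfected miRNA duplex is a double-stranded RNA, shorter than the ligands that best activate most of these proteins.

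The sequences below are the mature strands of the miR-491 hairpin, shown because the first is the miRNA that was delivered. They come from RefSeq (GRCh38.p14), and the capitals mark the seed, bases 2 to 8, which pairs with target transcripts.
hsa-miR-491-5p: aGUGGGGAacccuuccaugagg
hsa-miR-491-3p: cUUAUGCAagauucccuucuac
The miR-491-5p strand lies at chr9:20716120-20716141 and the miR-491-3p strand at chr9:20716154-20716175, both on the plus strand. Among the mature miRNAs of the RefSeq table, 0 others had the miR-491-5p seed and 0 others the miR-491-3p seed. Neither the control duplex nor the passenger strand of the delivered duplex is described by sequence in the labels. The probe set for the MIR491 precursor read 4.10 on the miR-491-5p array and 3.84 on the control array. It does not check delivery of the duplex, because it targets the precursor transcript.

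Interferon-induced genes are often switched on through the interferon-stimulated response element, whose core was searched here as GAAA, any 2 bases and GAAA again, on either strand. RefSeq promoter windows of 300 bases, from 250 before to 50 after a start site, were at hand for 7 of the 10 genes in 9 windows. The core was present in 4 of these 9 windows, those of EIF2AK2, IFIH1, TLR3 and OAS3, and in 3.57% of all 35116 windows. The windows of RIGI, OAS1 and ADAR did not hold these letters, and DHX58, OAS2 and OASL had no window in the table. The stretches below show the core (in capitals) with 20 bases on each side, read 5′ to 3′ on the gene's strand.
EIF2AK2: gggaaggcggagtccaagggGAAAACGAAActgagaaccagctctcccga
IFIH1: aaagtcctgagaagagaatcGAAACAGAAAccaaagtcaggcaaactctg
TLR3: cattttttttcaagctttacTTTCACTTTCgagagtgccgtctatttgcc
OAS3, upstream match: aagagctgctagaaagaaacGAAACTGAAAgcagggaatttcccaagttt
OAS3, downstream match: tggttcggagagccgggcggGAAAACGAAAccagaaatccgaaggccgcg
In GRCh38.p14 these are chr2:37156957-37157006 (EIF2AK2, minus strand), chr2:162318676-162318725 (IFIH1, minus strand), chr4:186069132-186069181 (TLR3, plus strand), chr12:112938311-112938360 and chr12:112938442-112938491 (OAS3, plus strand). The core began at position -6 relative to the start site in EIF2AK2, -21 in IFIH1, -4 in TLR3, and -143 and -12 in OAS3. IFIH1 had 3 matches in all, and the other pair overlap each other on the opposite strand. The gamma-activated sequence TTCNNNGAA, a site for STAT dimers that reads the same on both strands, was in 2 of the 9 windows, those of TLR3 and OAS1, and in 7.66% of all windows. A match is a description of letters and shows neither binding nor a cause of any value below.

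The double-stranded RNA sensors and OAS genes read nearly alike on the 2 arrays. All values are deposited log2 signals, and each difference subtracts the control array from the miR-491-5p array. Of the 10 genes, 5 were higher and 5 lower on the miR-491-5p array, and the differences ran from -0.25 (OAS2) to 0.22 (OAS3). Of the 10, 6 differed by 0.1 or less. Values were deposited with 2 decimals, so rounding alone can move a difference by up to 0.01. None of the 10 reached 1.5-fold in either direction, against shares of 2.5% (1.5-fold or more lower) and 0.445% (higher) among all 22465 genes. The 14373 genes above a signal filter of 5.55, which is the median over every value on either array, gave shares of 3.62% (lower) and 0.675% (higher). For a difference of 2-fold or more these shares were 0.758% (lower) and 0.0487% (higher). With shares this small, a count of 0 among 10 genes lies near the background.

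**Figure D1:**
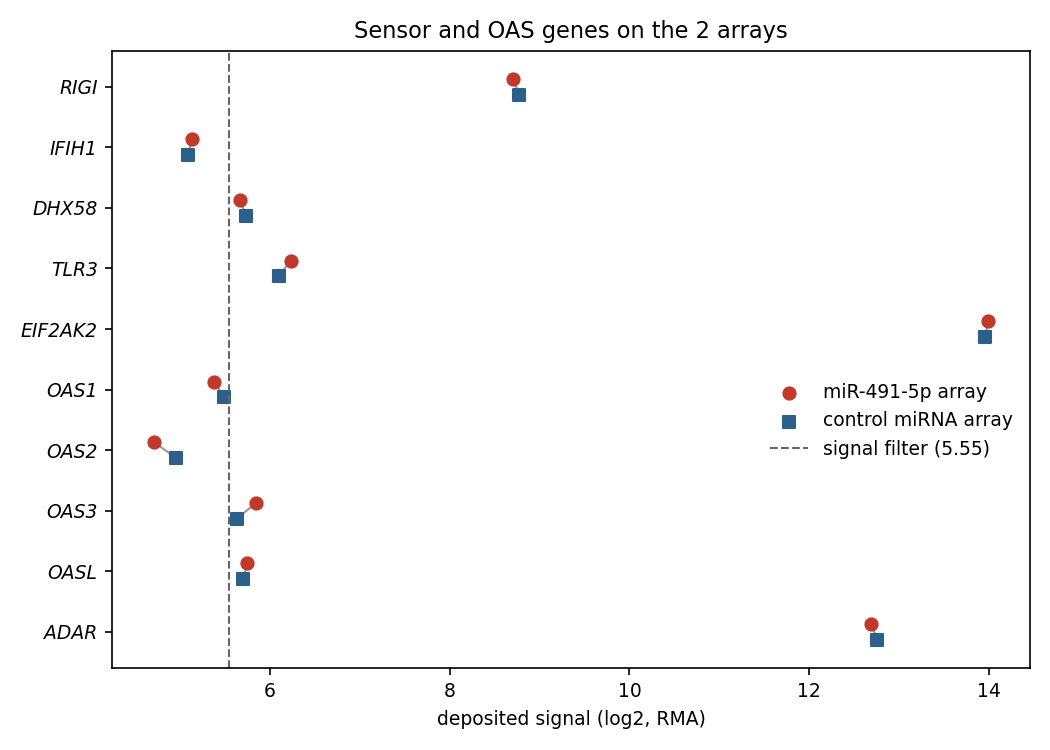
Deposited log2 signal of each of the 10 genes on the miR-491-5p array (red circles) and the control miRNA array (blue squares), 1 array per group, with the signal filter of 5.55 as a dashed line. The paired symbols lie close together in every row, and both symbols of IFIH1, OAS1 and OAS2 lie left of the filter. Signals of different probe sets are not comparable as transcript amounts.

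The cytosolic helicases differed by -0.06 to 0.04, a range of 0.1 against 0.47 in the OAS family. RIGI encodes the sensor of RNA ends that carry a triphosphate, and it read 8.71 on the miR-491-5p array and 8.77 on the control array, a difference of -0.06. IFIH1, which encodes the long-duplex sensor MDA5, read 5.13 on the miR-491-5p array and 5.09 on the control array. DHX58, which encodes LGP2, a relative of the other two that lacks the signalling domains and modulates them, read 5.67 on the miR-491-5p array and 5.73 on the control array. RIGI and DHX58 were thus lower and IFIH1 higher by a few hundredths of a log2 unit. RIGI stood clear of the filter on both arrays, DHX58 just above it, and IFIH1 below it on both.

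TLR3, the endosomal receptor for double-stranded RNA, read 6.23 on the miR-491-5p array and 6.10 on the control array. Its difference of 0.13 lay at percentile 86.0 of the differences of all genes above the filter, and 52.6% of those genes differed by at least as much in either direction. EIF2AK2, the kinase PKR, read 13.99 on the miR-491-5p array and 13.96 on the control array. ADAR, the editing enzyme, read 12.69 on the miR-491-5p array and 12.76 on the control array. The EIF2AK2 and ADAR transcripts, both well above the filter, differed by 0.03 and -0.07, sizes that 90.0% and 73.8% of genes above the filter reached or passed. One probe set covers each gene, so the interferon-induced long form of ADAR and its constitutive short form were not separated.

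The OAS family held both the highest and the lowest difference of the 10 genes, a range of 0.47 over 4 genes. The lower end of this range was OAS2, which lay below the filter. OAS1 makes oligoadenylates from a single synthetase unit, and it read 5.38 on the miR-491-5p array and 5.49 on the control array, a difference of -0.11. OAS2, built of a pair of such units, read 4.71 on the miR-491-5p array and 4.96 on the control array. Both lay below the filter on both arrays. OAS3, the largest of the family and the one most responsive to long duplexes, read 5.85 on the miR-491-5p array and 5.63 on the control array. Its difference of 0.22 lay at percentile 92.6, and 30.7% of genes above the filter differed by at least as much. OASL, which lacks synthetase activity and enhances RIG-I signalling in human cells, read 5.75 on the miR-491-5p array and 5.70 on the control array. OAS1, OAS3 and OAS2 sit side by side on chromosome 12, and these neighbours did not share a direction.

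The 10 genes differed in where their signals lay relative to the filter. In all, 7 passed the filter, each of them on both arrays, so none passed through the higher array alone, although DHX58, OAS3 and OASL lay only just above it. The genes above the filter were split by mean signal into 4 classes of nearly equal size. DHX58, TLR3, OAS3 and OASL were in the dimmest class. In that class the middle 95% of differences lay between -0.50 and 0.31, and all 4 genes were inside it. RIGI was in the third class (-0.78 to 0.39), and EIF2AK2 and ADAR were in the brightest class (-0.82 to 0.39), all of them inside these ranges. Among the 8092 genes below the filter the middle 95% lay between -0.42 and 0.24, and IFIH1, OAS1 and OAS2 were inside it as well. These ranges describe how genes differ between these 2 arrays and are not an error between cultures. Signal over background is unknown, so a low value does not show that a transcript was absent.

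The sign of such small differences depended on the scaling of the arrays. The median difference of all genes above the filter was -0.07, and 64.8% of them were below 0 and 33.5% above. Of the 7 sensor and OAS genes above the filter, 3 were below 0 and 4 above, with a median of 0.03. After the differences were centred on the median of all genes, 6 of the 7 were above 0 and ADAR was at 0.00, with a range up to 0.29 for OAS3. After a loess correction on signal they ran from -0.003 (ADAR) to 0.305 (OAS3). RIGI and DHX58 were thus below 0 as deposited and above 0 under both corrections. As deposited, the median size of the difference, without its sign, was 0.06 over the 7 genes and 0.13 over all genes above the filter. Deposited sizes above that of OAS3 were seen in 28.9% of genes. The median size of the 7 rose with centring. After centring none of the 7 was below 0, and their median was 0.1. That was still below the median size of 0.13 that all genes above the filter had as deposited. DHX58, TLR3, OAS3 and OASL were also in the dimmest class, where differences spread less. The robust SD was 0.148 in that class and 0.193 over all genes above the filter.

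**Figure D2:**
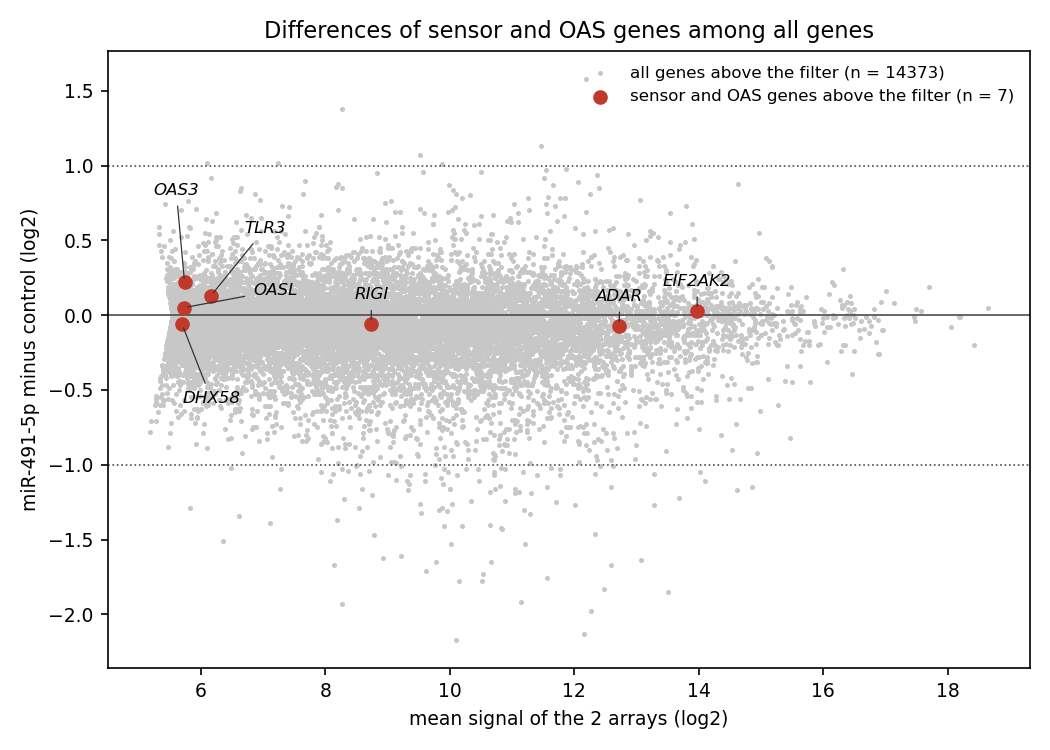
Difference between the arrays (miR-491-5p minus control, log2) against the mean signal of the 2 arrays (log2) for 14373 genes above the filter (grey) and the 7 sensor and OAS genes among them (red, named). Dotted lines mark 2-fold. The 7 genes lie between -0.07 and 0.22, within the dense part of the grey cloud.

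The transcripts of a pair of proteins that work directly with TLR3 had larger differences than TLR3 itself. UNC93B1, which carries the nucleic-acid-sensing Toll-like receptors from the endoplasmic reticulum to endosomes, read 7.89 on the miR-491-5p array and 9.18 on the control array. It was 2.45-fold lower (difference -1.29), the 38th lowest of 14373 genes above the filter, and stayed past 2-fold after centring (-1.22) and after the loess correction (-1.23). A related pseudogene, UNC93B6, read 5.41 on the miR-491-5p array and 6.05 on the control array, and whether probes for one also read the other was not tested. TICAM1, the adaptor TRIF that TLR3 recruits, read 6.39 on the miR-491-5p array and 6.91 on the control array, a difference of -0.52. TLR7, an endosomal receptor for single-stranded RNA, read 4.25 on the miR-491-5p array and 4.19 on the control array, and its relative TLR8 read 4.50 on the miR-491-5p array and 5.07 on the control array. Both lay below the filter on both arrays. Of the 4 genes above the filter in the list of endosomal receptors and their trafficking, UNC93B1 alone passed 1.5-fold, and the list median was -0.045 (0.025 after centring). MYD88, the adaptor of the other endosomal receptors, differed by 0.13, the chaperone CNPY3 by -0.12 and the adaptor TIRAP by 0.03.

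Among adaptors and regulators of RNA sensing, 13 of 18 genes above the filter were below 0 and 4 above. Over all genes above the filter, 64.8% were below 0 and 33.5% above. The list median was -0.085 against -0.07 for all genes. After centring, 11 were below 0 and 7 above, with a median of -0.015. None of the 18 reached 1.5-fold, near the shares of 3.62% (lower) and 0.675% (higher) among all genes above the filter. MAVS, the adaptor of RIGI and IFIH1, read 9.54 on the miR-491-5p array and 9.92 on the control array, a difference of -0.38. TRAF3, a ubiquitin ligase that links both adaptors to the kinases, read 9.65 on the miR-491-5p array and 10.17 on the control array. IRF3, the transcription factor activated at the end of both routes, read 8.34 on the miR-491-5p array and 8.86 on the control array. TICAM1, TRAF3 and IRF3 shared a difference of -0.52, at percentile 5.0 of all genes above the filter, and MAVS lay at percentile 9.6. The kinase between them, TBK1, read 12.50 on both arrays, and IRF7, an interferon-induced relative of IRF3, differed by -0.13. CYLD, a deubiquitinase that restrains RIG-I signalling, had the highest difference of the list at 0.31.

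The lists around EIF2AK2 and the OAS genes each held genes with larger differences than those members. In the PKR and eIF2 list, 9 of 10 genes were below 0, against 64.8% of all genes above the filter. The list median was -0.165 (7 of 10 below 0 and a median of -0.095 after centring). None reached 1.5-fold, near the shares of 3.62% (lower) and 0.675% (higher) among all genes above the filter. EIF2AK3, the kinase PERK, which also phosphorylates eIF2 alpha, read 9.51 on the miR-491-5p array and 9.99 on the control array. PPP1R15B, a subunit of the phosphatase that reverses the phosphorylation, differed by -0.23, the kinase EIF2AK4 by -0.21 and EIF2S1, eIF2 alpha itself, by -0.20. The PKR regulators PRKRA, DNAJC3 and TARBP2 differed less, by -0.16, -0.09 and -0.02 (-0.09, -0.02 and 0.05 after centring). In the OAS branch, 2 partners were measured. ABCE1, a ribosome-recycling ATPase also known to restrain the oligoadenylate response, read 13.09 on the miR-491-5p array and 13.70 on the control array. It was 1.53-fold lower as deposited and under 1.5-fold after centring (-0.54) and loess (-0.55). PDE12, a phosphodiesterase that breaks down oligoadenylates, read 10.67 on the miR-491-5p array and 11.25 on the control array. Its difference of -0.58 was just under 1.5-fold. Both partners restrain the branch, and both lay at the low end of all genes, at percentiles 3.2 and 3.7.

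Other proteins that bind or edit double-stranded RNA were measured through 14 genes, 4 of them below the filter. Above the filter, 9 of 10 were below 0, against 64.8% of all genes above the filter. The list median was -0.125 (8 of 10 below 0 and a median of -0.055 after centring). None reached 1.5-fold, near the shares of 3.62% (lower) and 0.675% (higher) among all genes above the filter. CDKN2AIP, a regulator of the p53 pathway, differed by -0.40, the RNA transport and decay factor STAU1 by -0.27, and the miRNA-processing nucleases DROSHA and DICER1 by -0.22 and -0.17. In the cytosolic DNA sensing list, 3 of 7 genes passed the filter, and STING1, the adaptor of that route, differed by -0.10, the nucleotide hydrolase SAMHD1 by 0.06 and the helicase DDX41 by 0.04.

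Interferon genes were at the low end of the signal scale on both arrays. Of 10 interferon genes, 7 lay below the filter on both arrays, and 9 had a negative difference, against 67.9% of all 22465 genes without a filter. After centring, 7 of the 10 were below 0. IFNB1, the first type I interferon made after RNA sensing, read 3.98 on the miR-491-5p array and 4.60 on the control array, both below the filter. IFNL1, a type III interferon, read 5.14 on the miR-491-5p array and 5.61 on the control array, and so reached 5.55 in the control culture alone, a condition that sets the sign of its difference. IFNE read 5.65 on the miR-491-5p array and 5.98 on the control array. IFNL3 read 5.67 on the miR-491-5p array and 5.55 on the control array, and its probes may also read the near-identical IFNL2. Values this low, with signal over background unknown, carry no order.

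Receptors and signal transducers of interferon were expressed above the filter. IFNAR1, a chain of the type I receptor, read 11.81 on the miR-491-5p array and 12.07 on the control array, and its partner IFNAR2 read 9.23 on the miR-491-5p array and 9.19 on the control array. Of 5 receptor chains, 4 were below 0, with a median of -0.18 (4 of 5 and -0.11 after centring). Of all genes above the filter, 64.8% were below 0. IFNGR1 differed by -0.30, IFNGR2 by -0.18 and IL10RB by -0.11. Among JAK-STAT genes and interferon regulatory factors, 8 of 10 above the filter were below 0, beside the same share of 64.8%. The list median was -0.19 (7 of 10 below 0 and a median of -0.12 after centring). The phosphatases PTPN11 and PTPN2 differed by -0.38 and -0.30, and the receptor kinases TYK2 and JAK1 by -0.27 and -0.26. None of these 15 genes reached 1.5-fold, near the shares of 3.62% (lower) and 0.675% (higher) among all genes above the filter.

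Interferon-stimulated genes outside the sensor set had small differences at the median. Of 34 measured, 19 passed the filter, 14 of them below 0 and 5 above, with a median of -0.05 and a median size of 0.07. Of all genes above the filter, 64.8% were below 0. The balance turned after centring, with 6 below 0, 12 above and a median of 0.02. None of the 19 reached 1.5-fold, which lies near the shares of all genes above the filter (3.62% lower and 0.675% higher). ISG15, a ubiquitin-like modifier, read 5.74 on the miR-491-5p array and 5.88 on the control array, and the antiviral GTPase MX1 read 5.68 on the miR-491-5p array and 5.73 on the control array. IFIT1, which binds viral RNA ends, read 5.26 on the miR-491-5p array and 5.39 on the control array, below the filter. The largest differences were IFI35 at 0.47, the secreted glycoprotein LGALS3BP at -0.41, IFIT5 at -0.32 and the exonuclease ISG20 at -0.26.

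**Figure D3:**
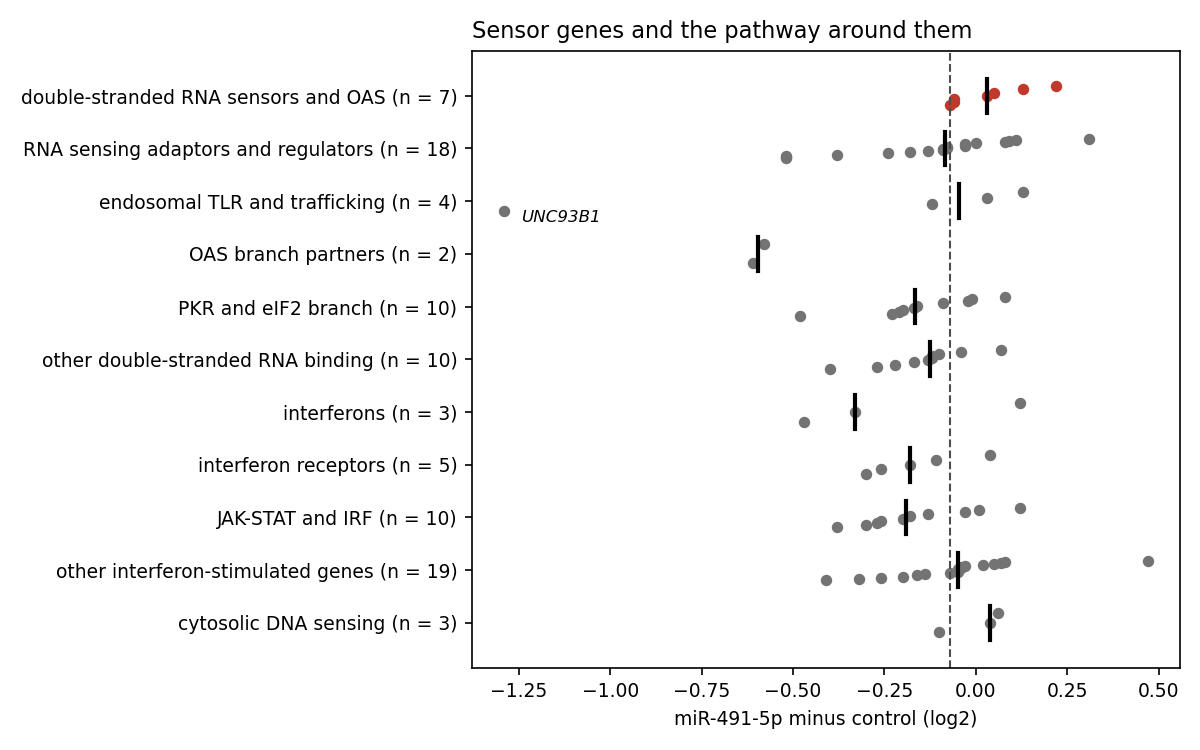
Difference between the arrays (miR-491-5p minus control, log2) for each gene above the filter in the sensor and OAS set (red) and in the lists around it (grey), with each list's median as a black bar and the median of all genes, -0.07, as a dashed line. The sensor and OAS genes span -0.07 to 0.22, while UNC93B1 stands at -1.29. Points are spread vertically within a row for visibility.

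Markers of the labelled cell type were checked on both arrays. Of 11 epithelial and ovarian carcinoma markers, 10 were above the filter, PAX8 among them at 14.59 on the miR-491-5p array and 14.77 on the control array, while MSLN was below it. The keratins KRT18, KRT19 and KRT8 differed by -0.60, -0.53 and -0.44, and the adhesion molecules CDH1 and EPCAM by 0.50 and 0.36. These named markers differed, in both directions, by more than any of the 10 sensor and OAS genes. The remaining markers of the list did not. CLDN3, PAX8, CLDN4, MSLN, MUC16 and WT1 differed by -0.21, -0.18, -0.15, -0.09, 0.05 and 0.04. Whether the marker differences bear on the sensor values was not tested. Of 11 leukocyte markers, 2 were above the filter (CD3E and CD68). CD68 stood well above it, at 10.54 on the miR-491-5p array and 10.76 on the control array. CD3E read 5.59 on the miR-491-5p array and 5.94 on the control array. PTPRC, the pan-leukocyte marker, read 4.68 on the miR-491-5p array and 4.76 on the control array. Of 8 fibroblast markers, 3 were above the filter (COL1A1, THY1 and ACTA2).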

How the data were processed

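The authors deposited 1 log2 signal for each transcript cluster (probe set) and array, computed with RMA according to the submitters' processing notes. Software version, background correction and genome build: not given in the sources used here. RMA works in base 2, which was taken as the log base. Each array was made from 100 ng of total RNA. The miR-491-5p array spanned 2.53 to 19.22 and the control array 2.58 to 19.18. A single array in each group limits the precision, and no test was possible.

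Of 67528 probe sets, 23781 carried 1 gene symbol, 1543 several and 42204 none in GEO's platform annotation, and 21497 matched RefSeq by Entrez ID. Where a gene had several probe sets, the one brightest on average was used. The filter, the higher value at or above 5.55, left 14373 genes. Folds are powers of 2 of deposited differences. Genes named were the 10 members, the 4 largest differences above the filter in each of 10 lists, and 15 further genes, 11 of which had a value (the others were not analysed here or shared a probe set with another gene). UNC93B6, CYLD, TBK1, TLR7, TLR8, PRKRA, DNAJC3 and TARBP2 were added after their values were seen, as were the named cell type markers. The members and lists were chosen with earlier results of these data known. RefSeq sequences are in GRCh38.p14. The 2-fold call was tested on data simulated with normally distributed noise, which need not match the spread of the real differences. The 1.5-fold call was not tested in this way. Alternatives were median centring, loess (span 0.3), no filter, the filter on both arrays and averaging over all probe sets of a gene. Python 3.11.15, numpy 2.4.6, pandas 2.3.3 and statsmodels 0.14.6 were used.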

Additional observations from a re-analysis of the deposited data

How the results depend on the processing

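No paired analysis was possible because there was 1 culture of each kind, and for the same reason leaving out replicates was not run. Of the sensor and OAS genes, 0 were past 1.5-fold under every setting tried (values as deposited, median centring, loess, averaged probe sets, no filter, and the filter on both arrays). Their differences moved by no more than 0.193, the robust SD of all differences between the arrays, under centring, loess and averaged probe sets (loess was fitted above the filter, so it gives no value for IFIH1, OAS1 and OAS2). In the OAS branch, the count at least 1.5-fold lower was 1 as deposited and 0 under median centring and under the loess correction, since both raise the difference of ABCE1. Without a filter, the count of interferon genes at least 1.5-fold lower was 1 (IFNB1), against 0 with it, and with both arrays above the filter their median was -0.105, because that setting drops IFNL1. Depth does not apply to arrays, and signal over background is unknown.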
